A study of Homo sapiens with 48 samples.

Results

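Purine nucleotides are built from small precursors in a chain of enzyme reactions, and the genes of that chain were followed here in K562 cells, an established human leukaemia cell line driven by the fusion kinase BCR-ABL1. The 10 genes were taken by name: PRPS1, PPAT, GART, PFAS, PAICS, ADSL, ATIC, IMPDH1, IMPDH2 and GMPS. All 10 were measured, among 11963 genes in all, by 19 Affymetrix probe sets, each a group of short probes annotated to 1 gene. No probe set was shared between a member and another gene in the platform annotation. Cells were either mock-treated or kept for 24 hours in 1 micromolar imatinib, an inhibitor of the BCR-ABL1 kinase. The 48 samples fall into 8 sets, lettered A to H in the sample titles, and every set holds 3 samples of each treatment. What a letter stands for, and whether samples came from separate cultures, is not said in the labels, so the p-values reflect only how much these samples vary, and that variation may be technical. RNA of mock cells was isolated with Trizol and then a column kit, and RNA of imatinib cells with the column kit alone, so treatment and isolation cannot be told apart. In bulk RNA of this kind, fewer cells of a type and less RNA per cell cannot be told apart either.

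Values are log2 levels as deposited. Array means of a set differed by at most 0.053, whereas set means ranged from 5.89 to 7.60, so levels were compared within sets only. Replicates of a group had a median SD between 0.061 and 0.147. Of 7 marker genes of K562 cells 6 were measured, and all lay at or above the 80.6th percentile of level. All 6, among them the globin genes HBE1 and HBZ, were called higher after imatinib, from 0.21 log2 for TFRC, 0.35 for GATA1 and 1.04 for HBE1 to 2.22 for KLF1, 2.44 for TAL1 and 3.13 for HBZ. Their part in the results was not tested. Of 13 markers of T cells, B cells, myeloid, epithelial and fibroblast cells 12 were measured, with mean levels between 4.57 (CDH1) and 8.55 (EPCAM) in mock samples. Of these 12, 2 were called lower and 4 higher after imatinib, and 6 were at least as bright as the median probe set. Of the T cell markers, CD3D went from 8.12 to 6.39 and was called lower, while CD3E went from 7.18 to 7.35 and was called higher. CD2 went from 6.36 to 6.45 and was not called. Levels on this scale have no true zero. The part of such transcripts was not tested either.

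The purine ring is assembled on ribose phosphate, atom group by atom group, until inosine monophosphate (IMP) is reached, and IMP is then turned into the adenine and guanine nucleotides. Dividing cells draw heavily on this route because RNA, DNA and ATP all need purines, and it is a target of long-used drugs such as mycophenolic acid, which inhibits IMP dehydrogenase. PRPS1 makes the activated ribose phosphate, PPAT carries out the committed step, GART, PFAS, PAICS, ADSL and ATIC complete the ring, and IMPDH1, IMPDH2 and GMPS lead from IMP to guanosine monophosphate.

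After imatinib, 7 of the 10 genes were lower: PRPS1, PPAT, GART, PFAS, PAICS, ATIC and IMPDH1. The falls ranged from 0.42 log2 for IMPDH1 to 1.34 log2 for PFAS, or 1.34-fold to 2.53-fold higher levels in mock cells. IMPDH2 and GMPS were higher by 0.10 and 0.13 log2, the call of IMPDH2 being lost with arrays centred on their median, and ADSL, with a change of 0.04, was not called. All of the route up to IMP except ADSL therefore had lower transcript levels, and of the genes leading on to guanine nucleotides 1 was lower and the other two were slightly higher. In the fit over all sets 27.1% of all genes were called lower and 41.6% higher (limma, 24 against 24 samples, adjusted p under 0.05), against 7 and 2 of the 10. The median log2 change was -0.56 for the 10 genes and 0.05 for all genes. A gene stands here for its brightest probe set, unless another is named.

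**Figure D1:**
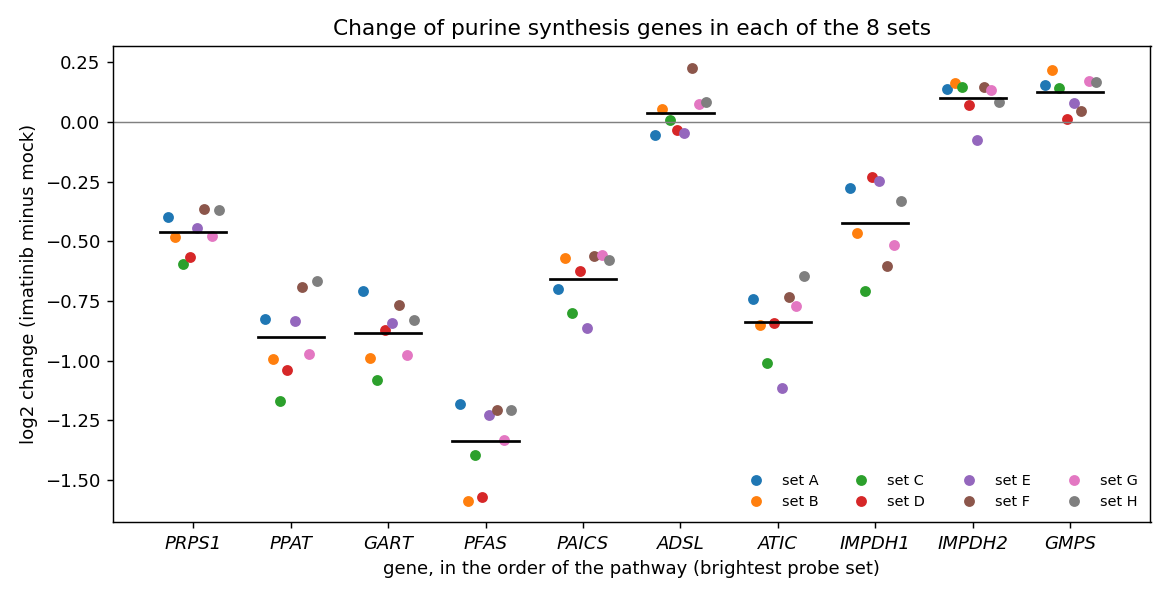
Log2 change (imatinib minus mock, vertical axis) of the 10 genes in the order of the pathway (horizontal axis), 1 point for each of the 8 sets, with a bar for the fit over all sets. PFAS lies lowest in every set, between -1.59 and -1.18, while ADSL, IMPDH2 and GMPS lie near 0.

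Fitted set by set, 3 samples against 3, the same 7 genes were called lower in sets A, B, C, D, G and H and 6 of them in sets E and F. Of all genes, 15.9%, 21.3%, 21.4% and 20.3% were called lower in sets A to D, and 13.7%, 10.7%, 16.9% and 12.7% in sets E to H. The change of these 7 genes was below 0 in all 56 comparisons of a gene in a set, and 54 of them were called. IMPDH1 in set E (limma adjusted p = 0.142) and PPAT in set F (adjusted p = 0.0551) were the exceptions. Upward, IMPDH2 in set B was the 1 call (0.16 log2, limma adjusted p = 0.0299), in a set where 30.1% of all genes were called higher. That call was lost without any single library of set B except imatinib replicate 2, with adjusted p from 0.0617 to 0.0829.

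For 6 of the 10 genes, PRPS1, GART, PFAS, PAICS, ATIC and IMPDH1, all 3 imatinib samples lay below all 3 mock samples in each of the 8 sets. Of all genes, 9.91% did so. PPAT showed this in 7 sets. In set F its imatinib replicate 1, at 8.05, was just above mock replicate 2, at 8.01.

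**Figure D2:**
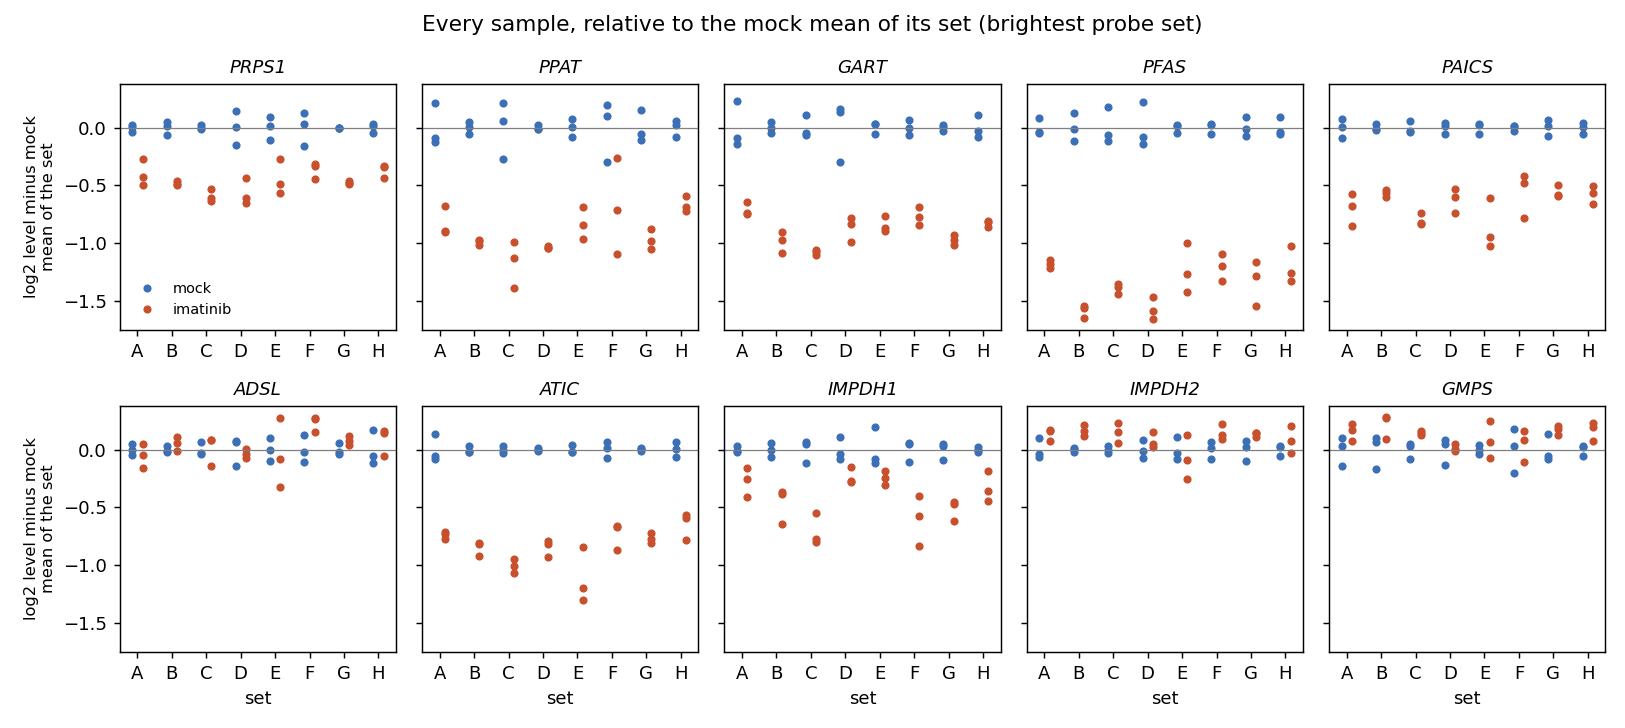
Log2 level of every sample minus the mock mean of its set (vertical axis), for sets A to H (horizontal axis), with a panel for each gene, mock samples in blue and imatinib samples in red. Imatinib samples of 6 genes lie below the mock samples in every set, those of PPAT overlap with mock in set F, and those of ADSL, IMPDH2 and GMPS mix with the mock samples in several sets.

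The route starts with PRPS1, a phosphoribosyl pyrophosphate synthetase, whose product is also used by the salvage enzymes. Its level in set C, where the change was largest, was 9.59, 9.61 and 9.58 in the mock samples and 9.06, 8.96 and 8.98 in the imatinib samples. In set F, where it was smallest, it was 9.50, 9.40 and 9.22 against 9.06, 8.93 and 9.04. The groups were apart in both, and by less in set F. Over all sets PRPS1 fell by 0.46 ± 0.03 log2 (SE, n = 24 per treatment, limma adjusted p = 6.89e-20). Its dimmer probe set fell more, by 0.76 ± 0.04. The call of PRPS1 within set F (adjusted p = 0.0345) was lost without mock replicate 1 (0.127), mock replicate 2 (0.118), imatinib replicate 1 (0.0616), imatinib replicate 2 (0.0916) or imatinib replicate 3 (0.0817). That in set E (adjusted p = 0.0128) was lost without mock replicate 2 (0.0756), mock replicate 3 (0.0534) or imatinib replicate 3 (0.065).

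PPAT, the amidotransferase that makes the first committed product of the route, was lower in every set. In set C its levels were 8.70, 9.18 and 9.03 in mock and 7.84, 7.98 and 7.58 in imatinib samples, the largest difference of the 8 sets at -1.17. In set H, with the smallest at -0.67, they were 9.10, 9.07 and 8.96 against 8.32, 8.36 and 8.45. Over all sets PPAT fell by 0.90 ± 0.05 log2 (limma adjusted p = 1.77e-21), and its dimmer probe set fell by 0.63 ± 0.05. In set F the gene was called without mock replicate 2 (adjusted p = 0.0429) or without imatinib replicate 1 (0.0089), but not with all 6 samples.

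PAICS encodes the enzyme that adds a carboxyl group and then aspartate to the unfinished ring. Its levels in set E were 9.88, 9.86 and 9.79 in mock and 9.23, 8.90 and 8.81 in imatinib samples, a change of -0.86. In set G, with -0.56, they were 11.37, 11.50 and 11.45 against 10.94, 10.84 and 10.86. The groups did not overlap in either, and the spread among imatinib samples was wider in set E. Over all sets PAICS fell by 0.66 ± 0.03 log2 (limma adjusted p = 1.38e-23). A second bright probe set, at a mean level of 10.02, fell by 0.97 ± 0.04.

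PPAT and PAICS are neighbours on chromosome 4 that are read in opposite directions, and both fell, so the letters between them are shown. The promoter sequences are those of RefSeq on GRCh38.p14, 300 bases each, from 250 before the annotated start to 50 from it on, written 5′ to 3′ on the gene's own strand, with the E-box CACGTG in capitals. CACGTG is the motif to which MYC and related factors bind, and it reads the same on both strands. The PPAT window is at chr4:56435566-56435865 on the minus strand and the window of the nearest of the 3 annotated PAICS starts at chr4:56435502-56435801 on the plus strand.
PPAT: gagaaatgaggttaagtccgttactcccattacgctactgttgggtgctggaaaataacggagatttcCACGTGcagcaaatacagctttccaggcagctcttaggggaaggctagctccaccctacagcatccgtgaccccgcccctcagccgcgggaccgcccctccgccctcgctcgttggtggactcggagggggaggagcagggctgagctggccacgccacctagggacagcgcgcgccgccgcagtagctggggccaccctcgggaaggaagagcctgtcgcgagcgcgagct
PAICS: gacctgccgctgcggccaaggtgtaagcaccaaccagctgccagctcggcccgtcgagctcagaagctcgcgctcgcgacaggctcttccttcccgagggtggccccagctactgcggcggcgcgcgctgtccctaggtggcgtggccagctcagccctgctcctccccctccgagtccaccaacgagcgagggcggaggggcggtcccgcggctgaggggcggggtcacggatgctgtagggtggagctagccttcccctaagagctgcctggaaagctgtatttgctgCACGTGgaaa
The annotated starts of these windows are 137 bases apart, and the windows share 236 bases. Their E-box is therefore the same stretch of DNA: it begins 182 bases before the PPAT start and 40 bases after that PAICS start.

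ATIC also held the motif, with 2 copies, the first beginning 46 bases before and the second 29 bases after the start, in the window chr2:215311809-215312108 on the plus strand. PFAS, the gene with the largest fall, had none in its window chr17:8249039-8249338 on the plus strand, which is shown as well.
ATIC: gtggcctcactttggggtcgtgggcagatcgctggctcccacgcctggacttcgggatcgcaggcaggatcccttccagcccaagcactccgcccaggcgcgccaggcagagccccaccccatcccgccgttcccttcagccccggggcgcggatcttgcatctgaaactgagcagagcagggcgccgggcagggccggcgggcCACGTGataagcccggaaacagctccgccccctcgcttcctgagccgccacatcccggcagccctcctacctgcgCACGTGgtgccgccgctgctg
PFAS: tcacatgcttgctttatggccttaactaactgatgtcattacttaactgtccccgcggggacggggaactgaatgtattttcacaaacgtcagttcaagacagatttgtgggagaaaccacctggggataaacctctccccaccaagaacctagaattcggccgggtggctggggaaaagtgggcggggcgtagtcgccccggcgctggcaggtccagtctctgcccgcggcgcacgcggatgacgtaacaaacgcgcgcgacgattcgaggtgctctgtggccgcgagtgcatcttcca
Windows were at hand for 8 of the 10 genes, 12 windows in all, and 3 genes held CACGTG: PPAT, PAICS and ATIC. The motif was in 3 of the 12 windows, and those of PPAT and PAICS hold the same E-box, so they are not separate finds. Over all promoters of that length given, the motif was found in 7.26% of windows and, in at least 1 window, for 8.77% of genes. PRPS1, GART, PFAS, IMPDH1 and GMPS had no CACGTG in these windows. Of these genes all but GMPS were lower after imatinib, and a part of the motif in the changes was not tested. A match in letters is a description and shows no binding, and no match says only that these letters are not in these windows. ADSL and IMPDH2 had no window among the promoters at hand.

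GART encodes a single protein with several activities of ring assembly, and it was measured by 5 probe sets. The brightest fell by 0.88 ± 0.03 log2 over all sets (limma adjusted p = 5.7e-28). In set C its levels were 9.88, 10.06 and 9.90 in mock and 8.87, 8.88 and 8.84 in imatinib samples. In set A, with the smallest change at -0.71, they were 8.61, 8.67 and 8.98 against 8.02, 8.11 and 8.01. The groups stayed apart in every set. The other 4 GART probe sets had mean levels of 8.89, 6.14, 5.96 and 4.23, and their log2 changes were -1.22 ± 0.04, -0.88 ± 0.06, -1.22 ± 0.08 and -0.10 ± 0.04. The dimmest of them, at the 7.09th percentile of level, was called over all sets (limma adjusted p = 0.0367) but in no set alone. That call was lost (adjusted p 0.0503 to 0.0699) without A mock replicate 3, B mock replicate 1, B imatinib replicate 2 or 3, D mock replicate 3, E mock replicate 3, G mock replicate 2 or 3, G imatinib replicate 1 or 3, or H mock replicate 1, and with replicate means (0.0641).

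PFAS, the synthase that brings in a nitrogen atom from glutamine, had the largest fall of the 10 and the 127th largest among 11963 genes. In set A the mock samples were at 7.67, 7.80 and 7.68 and the imatinib samples at 6.50, 6.54 and 6.57. In set B they were at 9.43, 9.19 and 9.30 against 7.66, 7.76 and 7.74. These are the sets with the smallest and the largest change, -1.18 and -1.59, and in both the gap between the groups was far wider than the spread inside them. In set C the mock samples were at 7.55, 7.85 and 7.61 and the imatinib samples at 6.28, 6.31 and 6.23. In set D they were at 8.29, 7.92 and 7.98 against 6.59, 6.47 and 6.40. In set E they were at 7.07, 7.14 and 7.14 against 6.12, 5.69 and 5.85. Set E had the lowest levels, and its imatinib samples varied more than its mock samples. In set F the values were 7.64, 7.72 and 7.71 in mock and 6.49, 6.36 and 6.59 in imatinib samples. In set G they were 9.07, 9.23 and 9.13 against 7.98, 7.60 and 7.86. In set H they were 8.39, 8.52 and 8.37 against 7.17, 7.10 and 7.40. In none of the 8 sets did an imatinib sample reach the level of a mock sample. Over all sets PFAS fell by 1.34 ± 0.04 log2, a 2.53-fold higher level in mock samples (limma adjusted p = 3.52e-32). It was called in each set alone, with adjusted p from 6.68e-08 in set B to 4.35e-05 in set F.

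ADSL, which splits fumarate from an intermediate of ring assembly and acts again on the way from IMP to AMP, differed from its neighbours in the route. In set E its levels were 8.86, 8.97 and 9.06 in mock and 9.24, 8.64 and 8.88 in imatinib samples, which overlap. In set F they were 9.66, 9.51 and 9.43 against 9.68, 9.80 and 9.80, the 1 set in which all imatinib samples were above mock. Over all sets the change was 0.04 ± 0.03 log2 (limma adjusted p = 0.289), with a 95% interval from -0.03 to 0.11, and it was below 0 in 3 of 8 sets. The second ADSL probe set, at a mean level of 9.51, rose by 0.12 ± 0.02 (limma adjusted p = 6.23e-06), with a change above 0 in 8 of 8 sets and a call in 0 sets alone. On this probe set all imatinib samples were above mock in 6 sets. Its name ends in _x_at, which Affymetrix gives to probe sets that may bind other transcripts too. With quantile normalization within sets the brighter probe set was called higher as well (0.18 log2, limma adjusted p = 1.34e-08). In a separate alternative, on values as deposited, the mean of both probe sets was called higher (0.08 log2, limma adjusted p = 0.0032).

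ATIC, which carries out the last reactions to IMP, was lower in every set. In set E its levels were 9.57, 9.64 and 9.58 in mock and 8.75, 8.29 and 8.40 in imatinib samples, a change of -1.12. In set H, with -0.64, they were 10.45, 10.52 and 10.58 against 9.74, 9.96 and 9.93. The groups did not overlap in either set, although the imatinib samples of set E spread over more than those of set H. Over all sets ATIC fell by 0.84 ± 0.03 log2 (limma adjusted p = 5.14e-27).

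IMP dehydrogenase, which controls the flow into guanine nucleotides, comes in 2 forms from separate genes. IMPDH2 is the form linked to dividing cells, and IMPDH1 is known as the form present at low level in many tissues. IMPDH1 was lower after imatinib by 0.42 ± 0.04 log2 (limma adjusted p = 2.46e-13). In set C it was at 7.89, 7.91 and 7.72 in mock and 7.29, 7.04 and 7.07 in imatinib samples, a change of -0.71. In set D it was at 8.40, 8.26 and 8.22 against 8.02, 8.15 and 8.02, a change of -0.23. The groups stayed apart in all 8 sets but came close in sets D and E. In set E the lowest mock sample was at 7.68 and the highest imatinib sample at 7.61. The call of IMPDH1 in set D (adjusted p = 0.0268) was lost without mock replicate 1 (0.0715), imatinib replicate 1 (0.0889) or imatinib replicate 3 (0.0897). In set A (0.0218) it was lost without imatinib replicate 2 (0.0876) or 3 (0.0528), and in set H (0.0142) without imatinib replicate 2 (0.0631).

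IMPDH2 was higher by 0.10 ± 0.03 log2 over all sets (limma adjusted p = 0.00099), and this call was lost with arrays centred on their median (0.06 log2, adjusted p = 0.0659), while quantile normalization within sets gave 0.19 log2 (adjusted p = 3.11e-11). In set B its levels were 11.81, 11.84 and 11.85 in mock and 12.04, 11.95 and 12.00 in imatinib samples. In set E they were 10.42, 10.55 and 10.36 against 10.57, 10.19 and 10.35. Imatinib samples were all above mock in 4 sets, B, C, F and G, and the change was below 0 in set E alone, at -0.07. The difference between the changes of IMPDH1 and IMPDH2 was not tested. Probe sets of 2 such similar genes can share signal.

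GMPS, the synthetase that makes guanosine monophosphate from xanthosine monophosphate, was higher by 0.13 ± 0.03 log2 over all sets (limma adjusted p = 0.000414), with a change above 0 in 8 of 8 sets. Its size moved with the scaling, from 0.09 log2 with centred arrays (limma adjusted p = 0.026) to 0.25 after quantile normalization within sets (8.16e-12). In set B its levels were 10.94, 11.17 and 11.21 in mock and 11.20, 11.39 and 11.39 in imatinib samples, which overlap. In set D, with the smallest change at 0.01, they were 10.48, 10.26 and 10.45 against 10.44, 10.40 and 10.39. No set alone called it. Set B came nearest (adjusted p = 0.0513), and GMPS was called there without mock replicate 3 (0.0417) or imatinib replicate 1 (0.0229), and in set G without mock replicate 2 (0.0358).

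Taken by probe set, 15 of the 19 were called lower over all sets and 3 higher, against 25.8% and 39.3% of 22215 probe sets. With arrays centred on their median the whole table had 6638 lower and 6194 higher in place of 5738 and 8740, while of the 19 still 15 were lower and 2 were higher. Of the 19, 15 were at least as bright as the median probe set. The dimmest PAICS probe set, at a mean level of 4.58, had a change of -0.07 ± 0.03 that was called over all sets (limma adjusted p = 0.0202) and in no set alone, and the call was lost with replicate means (0.0986). Its largest fall was in set G, at -0.23, and without set G 13 of the 19 probe sets were called lower in place of 15. For PRPS1, GART and PAICS a dimmer probe set had a larger fall than the brightest, and for PPAT the brightest had the larger one. These differences were not tested.

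**Figure D3:**
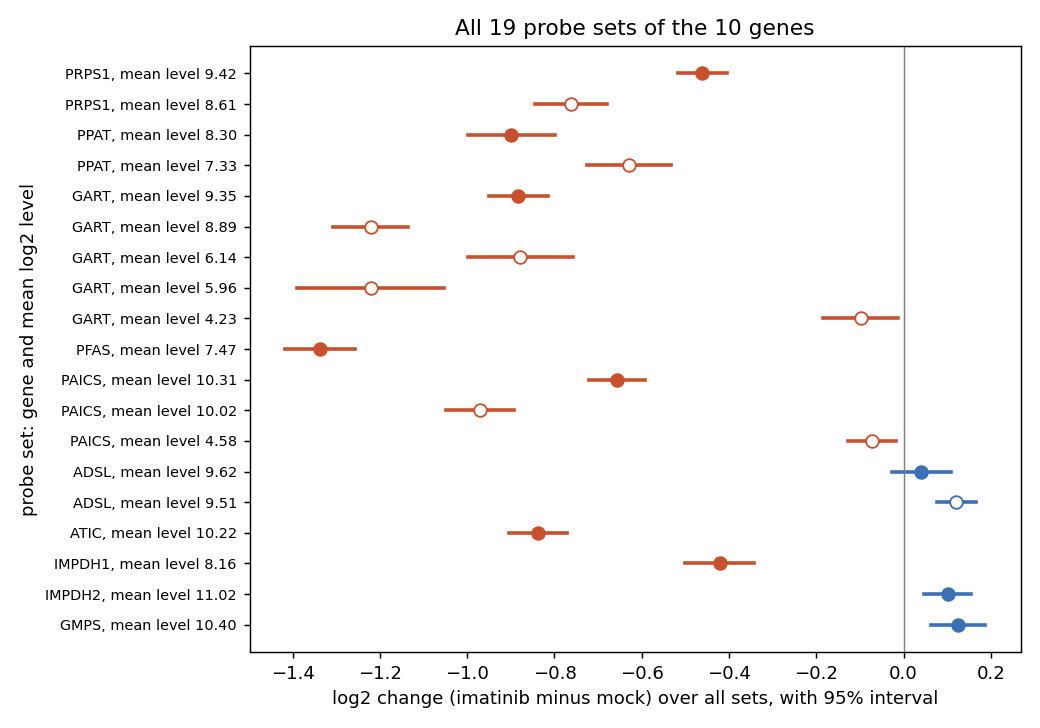
Log2 change (imatinib minus mock, horizontal axis) with its 95% interval over all sets for the 19 probe sets, labelled by gene and mean log2 level (vertical axis), with filled points for the brightest of each gene, red below 0 and blue above. Probe sets of GART range from -1.22 to -0.10, and the 2 dimmest of all, at 4.58 (PAICS) and 4.23 (GART), lie near 0.

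The sets differed in the size of the change at 3 of the 19 probe sets, by a moderated F test of the set-by-treatment terms, against 7.2% of all probe sets. They were 2 of GART and that of ATIC. The GART probe set at a mean level of 6.14 changed by -1.42 in set B and by -0.28 in set F (limma adjusted p = 0.00187). In set B it was at 7.91, 7.75 and 7.68 in mock and 6.20, 6.46 and 6.41 in imatinib samples, and in set F at 5.27, 5.23 and 5.13 against 4.85, 4.83 and 5.11. Its level in set F was thus low in both groups. The one at 8.89 changed by -1.49 in set D and by -0.86 in set F (adjusted p = 0.0262). This call was lost without C mock replicate 2 (0.0563) or 3 (0.054), F mock replicate 1 (0.0609), or F imatinib replicate 1 (0.065) or 3 (0.0647). ATIC ranged from -1.12 in set E to -0.64 in set H (adjusted p = 0.0373), and its call was lost without any of 15 single libraries (adjusted p 0.0504 to 0.0867). These were A mock replicate 1, C mock replicate 2 or 3, C imatinib replicate 3, all 3 mock replicates of E, E imatinib replicate 2 or 3, F mock replicate 3, F imatinib replicate 3, G imatinib replicate 1, H mock replicate 1, and H imatinib replicate 2 or 3. Calls were also gained in this way. IMPDH1, just short of a call with all samples (adjusted p = 0.0518), was called without any of 14 single libraries (0.023 to 0.0495), the GART probe set at 5.96 (0.0681) without any of 5 (0.00885 to 0.0457), and PAICS (0.241) without E imatinib replicate 1 (0.0333).

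Other genes of purine handling did not move as a block. The list held PRPS2 and the PRPS-associated genes PRPSAP1 and PRPSAP2, which belong to the opening step of the route, and genes of AMP formation, salvage, breakdown, interconversion and nucleotide phosphorylation. Of these 23 genes 17 were measured, and 8 were lower and 5 higher over all sets, with a median log2 change of -0.02. Among all genes 27.1% were lower and 41.6% higher, with a median of 0.05. The nucleoside diphosphate kinase gene NME1 went from a mean of 11.65 in mock to 10.24 in imatinib samples and fell by 1.41 ± 0.04 (limma adjusted p = 1.04e-31). NME1 is similar in sequence to NME2, so its probe set may share signal with that gene. GUK1, the kinase that phosphorylates guanosine monophosphate, went from 9.14 to 10.37 and rose by 1.24 ± 0.04 (limma adjusted p = 5.17e-31), with a dimmer probe set that rose by 0.16. At the opening step PRPS2 had a change of -0.71 ± 0.07, whereas PRPSAP1 rose by 0.77 ± 0.03 and PRPSAP2 rose by 0.29 ± 0.04, all 3 called. PNP, the purine nucleoside phosphorylase, fell by 0.64 ± 0.03. NME1 and PNP changed below 0 and GUK1 and PRPSAP1 above 0 in 8 of 8 sets.

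Purine ring assembly takes its formyl groups from folate. Of 7 listed genes of folate carbon supply 5 were measured, and 3 were lower and 1 higher, with a median of -0.60. The shares of all genes were 27.1% lower and 41.6% higher. The mitochondrial enzyme gene MTHFD2 fell by 1.51 ± 0.06 (limma adjusted p = 5.76e-28), the serine hydroxymethyltransferase gene SHMT2 fell by 0.86 ± 0.03 and MTHFD1 fell by 0.60 ± 0.04. SHMT1, at a mean level of 4.76, rose by 0.14 ± 0.04 (limma adjusted p = 0.000961), with a change above 0 in 6 of 8 sets.

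All 6 listed genes of pyrimidine synthesis were measured, and 5 were lower and 0 higher over all sets, with a median of -0.42. Here too the shares of all genes were 27.1% lower and 41.6% higher. CTPS1, which makes CTP, fell by 0.83 ± 0.04 (limma adjusted p = 7.97e-24). UMPS fell by 0.50 ± 0.03, CAD, which carries the first activities of that route, fell by 0.48 ± 0.03, and DHODH, a mitochondrial dehydrogenase, fell by 0.35 ± 0.04. The dimmest UMPS probe set and both dimmer DHODH probe sets, at mean levels between 5.06 and 5.68, were not called, with changes of -0.02, -0.01 and 0.04.

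**Figure D4:**
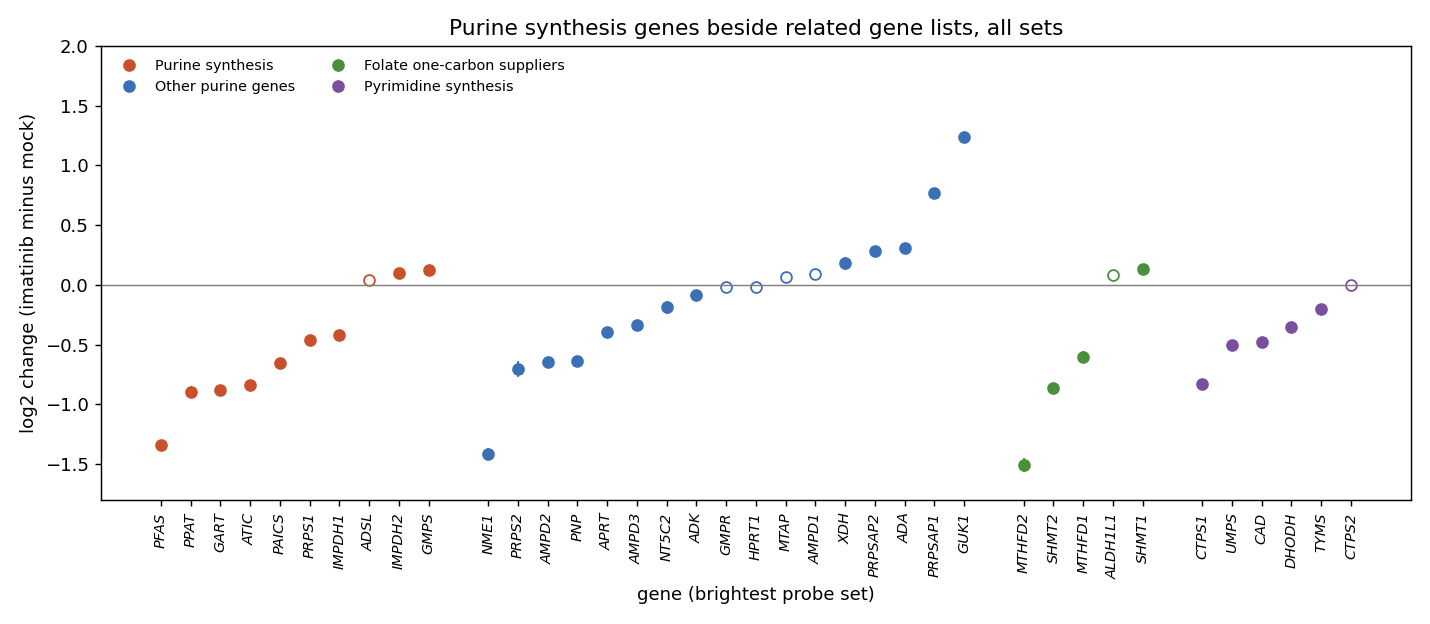
Log2 change (imatinib minus mock, vertical axis) over all sets with its SE for the 10 purine synthesis genes and for the measured genes of the 3 related lists (horizontal axis), filled where called; most SE bars are smaller than the points. Purine handling genes spread from -1.41 (NME1) to 1.24 (GUK1), and 5 of the 6 pyrimidine genes lie below 0.

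Across the 48 samples, after each set's mean was subtracted, 5 genes outside the pathway followed the mean standardised level of the 10 genes most closely: KIF20A (Pearson r = 0.968), PSME4 (0.967), GRSF1 (0.965), IVNS1ABP (0.963) and CUL3 (0.96). The members themselves, which enter that mean, ranged from -0.23 for GMPS to 0.94 for ATIC. These samples share the treatment difference, and no test was made of the measure. With the mean of each set and treatment subtracted instead, the members stood in another order. For this, each gene was still scaled by its spread with the treatment difference left in. Genes with large falls therefore weighed less in the mean than genes with small changes, and the order is partly set by that scaling. GMPS then had r = 0.72, IMPDH2 had 0.84 in place of -0.18 and ADSL had 0.85 in place of 0.21, while GART had 0.15 in place of 0.88. The 5 genes named above lay between 0.82 and 0.88 on that measure. KIF20A fell by 0.72 log2 over all sets and CUL3 fell by 0.58.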

How the data were processed

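The authors deposited log2 levels for 22283 probe sets in 48 samples. That they are log2 was read from the values (2.41 to 14.9). Per the labels, targets came from about 8 micrograms of total RNA by standard Affymetrix procedures. How background was corrected and probes were summarised and normalized is not given in the sources used here. Keywords of imatinib samples also name mock, so groups were taken from titles and descriptions. The 68 control probe sets were left out, and the other 22215 were used as deposited. Gene names came from the platform annotation, updated by gene number from RefSeq (GRCh38.p14): 19065 probe sets had 1 symbol, 1043 several and 2107 none. A gene was represented by its brightest probe set with 1 symbol.

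The tool was limma 3.58.1 under R 4.3.3, by linear models and empirical Bayes moderation, two-sided, with set as a factor over all samples, within each set, and for set-by-treatment terms. Adjusted p-values are Benjamini-Hochberg values over all probe sets, with a threshold of 0.05 ("called"). Percentages of genes count brightest probe sets. The fits were tested on simulated data. Same-numbered mock and imatinib samples of a set deviated with correlations from -0.52 to 0.49 (24 pairs, 7 above 0.1), so numbers were not taken to pair samples.

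Named genes were all members, up to 4 of each related list with the smallest p, and the 5 genes closest to the members' mean profile. Members, lists and rules were chosen with earlier results of these data known. Figures were drawn with matplotlib 3.10.9. Precision is limited by how many arrays there are.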

Additional observations from a re-analysis of the deposited data

Results flagged for a closer look

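By limma's moderated F test of the set-by-treatment terms, adjusted over 22215 probe sets, 7.2% of all probe sets were called. For 3 of the 19 member probe sets the imatinib change differed in size between the 8 sets by this test. They are a GART probe set at a mean level of 6.14 (adjusted p = 0.00187, between 0.000762 and 0.00936 on leaving out each library in turn), a GART probe set at 8.89 (adjusted p = 0.0262, 0.00776 to 0.065) and that of ATIC (adjusted p = 0.0373, 0.000693 to 0.0867). Each changed below 0 in all 8 sets, so the sets differ in size and not in direction. The brightest GART probe set did not pass this test (adjusted p = 0.244). Groups of 3 samples were too small to look for single samples that stand apart.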

How the results depend on the processing

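Alternatives were array centring, quantile normalization within sets, leaving out dim probe sets, other variance moderation, a replicate block, replicate means, mean of a gene's probe sets, and leaving out each set or library. Of 368 recomputed counts 349 stayed within 1.5 times. The 7 genes that fell kept direction and call over all sets in all 63 alternatives each. GMPS did too, with a change from 0.09 to 0.25 log2 between centred arrays and quantile normalization. IMPDH2 lost its call with centred arrays (0.06 log2, limma adjusted p = 0.0659), and ADSL gained one after quantile normalization and as the mean of its probe sets. Changes came from the small upward calls and from the calls of set-by-treatment differences. Genes called higher in set B were 0 with centred arrays and 3 after quantile normalization. There were 2 without dim probe sets, 2 with other moderation, 2 with gene means, and 0 to 1 leaving out a library. After quantile normalization 3 genes were higher in C and D and 1 in E, F, G and H. In set G it was 0 to 1 leaving out a library. As deposited, 30.1% of all genes were called higher in set B. Over all sets 8740 of 22215 probe sets were called higher as deposited. With centred arrays it was 6194, and after quantile normalization 7394. Shares of all genes within single sets are not given for the alternatives, so these small counts cannot be set against them. Probe sets with set-by-treatment differences numbered 1 to 5 leaving out a library, 1 without C mock replicate 2 or 3, and 5 without D mock replicate 1 or E imatinib replicate 1. With the replicate block 15 member probe sets were lower and 3 higher, as without it, and no count within a set changed. With replicate means, 8 against 8, 13 were lower and 3 higher. The causes were not tested. Signal over background was not used here, so changes of the dimmest probe sets could be missed.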
